A study of Mus musculus with 22 samples.

Results

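The 8 genes described here are Hmgcs1, Idi1, Fdps, Sqle, Lss, Cyp51, Dhcr7 and Insig1, a set of cholesterol synthesis genes chosen by symbol from 55487 gene identifiers. All 8 were found, and all 8 passed the minimum level for testing. They were measured by poly(A) RNA sequencing in mouse embryonic stem cells, a Dux knockout line (Dux-/-) kept in 2iLIF medium. Every group, the control included, carried the knockout and received doxycycline at 0.25 ug/mL for 12 hours after 24 hours of recovery. Doxycycline induced mCherry, a red fluorescent protein, alone (mCherry) or joined to full-length DUX (FL) or to a DUX derivative. The derivatives are named by the labels as C3+14, C1+14, C1C3a, C1C3b, C1C3c, C12345delt14, deltC12345+14 and deltC12345delt14. The genotype labels read C12345delt14 as lacking 14aa, and what sets a, b and c apart is not stated there. The labels do not state whether a line is a single clone or whether replicates are separate cultures, so p-values measure only the spread between these samples, which may be technical. Each of the 10 groups had 2 libraries. They come from 2 tables that were scaled separately, a chimera table (FL, C1C3a, C3+14, C1C3b, C1C3c, C1+14 and mCherry) and a deletion table (FL, C12345delt14, deltC12345+14 and deltC12345delt14). Both tables hold the same FL libraries, and groups were compared only within a table.

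Cells make cholesterol from acetyl-CoA through mevalonate, isoprenoids, squalene and lanosterol. Hmgcs1 makes HMG-CoA at the entry of the pathway, Idi1 isomerizes isopentenyl diphosphate, and Fdps joins isoprene units to farnesyl diphosphate. Sqle epoxidizes squalene, Lss closes the ring to lanosterol, Cyp51 removes a methyl group from lanosterol, and Dhcr7 catalyses a last reduction to cholesterol. Transcription of most of these genes is driven by SREBP2, which is released from the endoplasmic reticulum when sterol is low. Insig1 holds SREBP in the endoplasmic reticulum and is itself an SREBP target.

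The upstream sequences of 3 members are shown because their RNA levels differed in pattern: Hmgcs1 was lowest in FL and C1C3a, Insig1 was low there and in C1C3b, and Dhcr7 was lowest in mCherry. The RefSeq promoter table (GRCm38.p6) matched 6 of the 8 members, all but Sqle and Fdps. Sequences run 5′ to 3′ on the gene's strand and end before the first annotated exon base. Capitals mark matches, on either strand, to TCACNCCAC (the core of a sterol regulatory element, where SREBP binds), CCAAT (bound by NF-Y), GGGCGG (a GC box, bound by Sp1) or GATTNAATC (the core of the sequence DUX binds). Matches did not overlap each other. The regions are chr13:119690101-119690350 (plus strand) for Hmgcs1, chr5:28071162-28071362 (plus strand) for Insig1 and chr7:143822917-143823144 (plus strand) for Dhcr7.
Hmgcs1: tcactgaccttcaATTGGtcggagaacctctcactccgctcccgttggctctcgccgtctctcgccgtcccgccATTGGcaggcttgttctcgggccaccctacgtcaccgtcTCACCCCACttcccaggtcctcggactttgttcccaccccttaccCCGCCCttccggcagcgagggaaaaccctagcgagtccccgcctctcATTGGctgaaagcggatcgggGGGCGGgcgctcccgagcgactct
Insig1: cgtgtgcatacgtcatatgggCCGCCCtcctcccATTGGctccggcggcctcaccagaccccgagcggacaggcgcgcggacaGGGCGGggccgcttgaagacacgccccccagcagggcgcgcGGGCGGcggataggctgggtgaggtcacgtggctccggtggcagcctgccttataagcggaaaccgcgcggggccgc
Dhcr7: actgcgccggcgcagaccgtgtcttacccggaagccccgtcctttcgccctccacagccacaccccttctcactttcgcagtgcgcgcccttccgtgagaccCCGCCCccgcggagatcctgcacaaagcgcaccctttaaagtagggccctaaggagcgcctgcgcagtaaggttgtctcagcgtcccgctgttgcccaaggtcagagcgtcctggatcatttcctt
In the 250 bases before the start, TCACNCCAC was found in Hmgcs1 (at position -137) and in no other of the 6 matched members, and in 1.05% of 32851 windows of the same length. The 6 members have 8 windows in the table, since Dhcr7 has 3. CCAAT was found in 6 of the 8 windows (33.8% of all windows) and GGGCGG in 7 of 8 (32.7%). For Dhcr7, CCAAT was found only in a window that lies within annotated exons, and the sequence printed has none. GATTNAATC was found in 0 of the 8 and in 0.247% of windows. These are matches of letters and no measurement of binding.

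Depth ran from 21059953 to 40448890 reads a library, and a single read stood for 0.620 to 1.81 normalised reads. The defining embryonic stem cell markers (8 of 8, Pou5f1 and Nanog among them) were above 3 reads in every library. Against mCherry, however, some were called lower in every construct: 5 of 8 in FL and in C1C3b, 4 in C3+14 and in C1C3c, 2 in C1C3a and 1 in C1+14. The shares of all genes called lower were 19.6% in FL, 17.1% in C1C3b, 17.7% in C3+14, 10.5% in C1C3c, 19% in C1C3a and 5.95% in C1+14. The deletion table had 6 of 8 called higher in both constructs without C12345 than in FL, beside 18.4% and 18.8% of all genes. No stem cell marker was called higher than in mCherry. The Dux gene (Duxf3) was listed at 0 in all libraries of both tables, so its counts do not check the transgenes. The summed level of 6 markers of the 2-cell embryo state was 1355144 and 725112 normalised reads in FL, 724971 and 792252 in C3+14, and 323957 and 476214 in C1C3a. It was 18930 and 13384 in C1C3b, 897 and 823 in C1C3c, 11 and 4.96 in C1+14, and 0.660 and 0.858 in mCherry. In the deletion table it was 546813 and 346034 in C12345delt14 and 3.28 at most in the constructs without C12345. Summed fibroblast (feeder) markers stayed between 106 and 267 normalised reads in the chimera table and between 144 and 328 in the deletion table. Summed primitive endoderm markers (5 genes) were 156 and 161 normalised reads in mCherry, 489 and 538 in C1C3b, and 536 and 522 in C3+14. Of the 5, 4 were called higher in C1C3b, 3 in C3+14 and C1C3a, 2 in C1C3c and C1+14 and 1 in FL. In C1C3a 1 was called lower, beside 19% of all genes. The shares of all genes called higher were 27.6% in C1C3b, 29.6% in C3+14, 27.4% in C1C3a, 18.3% in C1C3c, 12.4% in C1+14 and 24.5% in FL. Summed neural markers (4 genes) were 3143 and 3430 in mCherry, 3507 and 2075 in FL, and between 713 and 1010 in C1C3b and C1C3c. Summed trophectoderm markers (6 genes) lay between 397 and 1044 in the chimera table. The part of these markers in the members' differences was not tested. Libraries fell into 2 kinds that follow no label. In both C3+14 and both mCherry libraries, deltC12345+14 replicate 2 and deltC12345delt14 replicate 1, between 0.522% and 0.675% of reads fell in 1728 high-copy genes, against 1.96% to 2.98% in the other libraries. So C3+14 against mCherry compares libraries of 1 kind, and for the other constructs against mCherry kind and construct cannot be told apart. Within the 2 constructs that hold both kinds, the members differed between the kinds by -0.29 to 0.60 on the log2 scale.

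Per kilobase of exon, the order of levels in mCherry was Hmgcs1 (786 ± 29.1 normalised reads per kb, SD, n = 2), Idi1 (604 ± 39.9), Insig1 (398 ± 3.32), Sqle (282 ± 12.4), Cyp51 (238 ± 2.13), Dhcr7 (106 ± 5.68), Lss (80.0 ± 5.46) and Fdps (7.68 ± 0.666). Each step in that order was larger than the SDs of its neighbours. In FL the order was Hmgcs1 (336 ± 63.6), Cyp51 (311 ± 68.6), Idi1 (286 ± 11.5), Insig1 (198 ± 59.9), Dhcr7 (187 ± 8.09), Sqle (148 ± 9.68), Lss (52.5 ± 2.45) and Fdps (8.97 ± 0.684). Among these, Hmgcs1, Cyp51 and Idi1 lay within the larger SD of each pair, as did Insig1 with Dhcr7 and Insig1 with Sqle. Fdps and Idi1 are uncertain: 31.0% and 16.3% of their exonic 50-base words also occur in other genes, and the handling of such reads is not given in the sources used here.

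The first comparisons set each construct against mCherry alone. Dhcr7 was higher than in mCherry in every construct and was called in 5 of 6, Sqle was called higher in 3, and Hmgcs1 and Idi1 were called lower in FL and C1C3a. Insig1 was called lower in FL, and Fdps, Lss and Cyp51 were called in none. Called means a limma p under 0.05 after Benjamini-Hochberg adjustment over every gene tested in the table, together with a log2 fold change of 1 or more in size. In bulk RNA, a change in the number of cells of a type and a change of RNA per cell cannot be told apart. All 6 comparisons share the mCherry libraries.

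Dhcr7 had 596 and 643 normalised reads in mCherry, 1121 and 1055 in FL, 2493 and 2353 in C3+14, 3033 and 3352 in C1C3a, 3637 and 3532 in C1C3b, 2746 and 2522 in C1C3c, and 1944 and 2701 in C1+14. Both mCherry libraries lay below all 12 others, and both FL libraries lay below the remaining 10. Against mCherry, Dhcr7 rose by 2.53 ± 0.14 on the log2 scale (SE) in C1C3b (5.79-fold, adjusted p = 1.3e-08, limma), by 2.36 in C1C3a, by 2.09 in C1C3c, by 1.97 in C3+14 and by 1.89 in C1+14. The rise in C3+14, 3.91-fold, is between libraries of the same kind. In FL the difference of 0.81 ± 0.14 (adjusted p = 0.00026, limma) fell short of the minimum fold, and it turned to -0.22 when libraries were scaled to total reads.

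Sqle had 1610 and 1512 normalised reads in mCherry, 782 and 858 in FL, 3022 and 3264 in C3+14, 2315 and 2047 in C1C3a, 4305 and 4080 in C1C3b, 3762 and 3869 in C1C3c, and 2409 and 3225 in C1+14. FL lay below mCherry and every other construct lay above it. Sqle rose by 1.42 ± 0.14 in C1C3b (2.69-fold, adjusted p = 1.6e-06, limma), by 1.29 in C1C3c and by 1.01 in C3+14. The C3+14 call sat at the fold minimum: the value was 0.95 in edgeR, 0.95 without C3+14 replicate 2, 0.96 without mCherry replicate 2, 0.81 after quantile normalization and 0.22 with total-read scaling. In FL Sqle was lower by -0.93 ± 0.14 (adjusted p = 6.0e-05, limma), short of the fold minimum, and it was called by edgeR (-1.09) and with total-read scaling (-1.96).

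**Figure D1:**
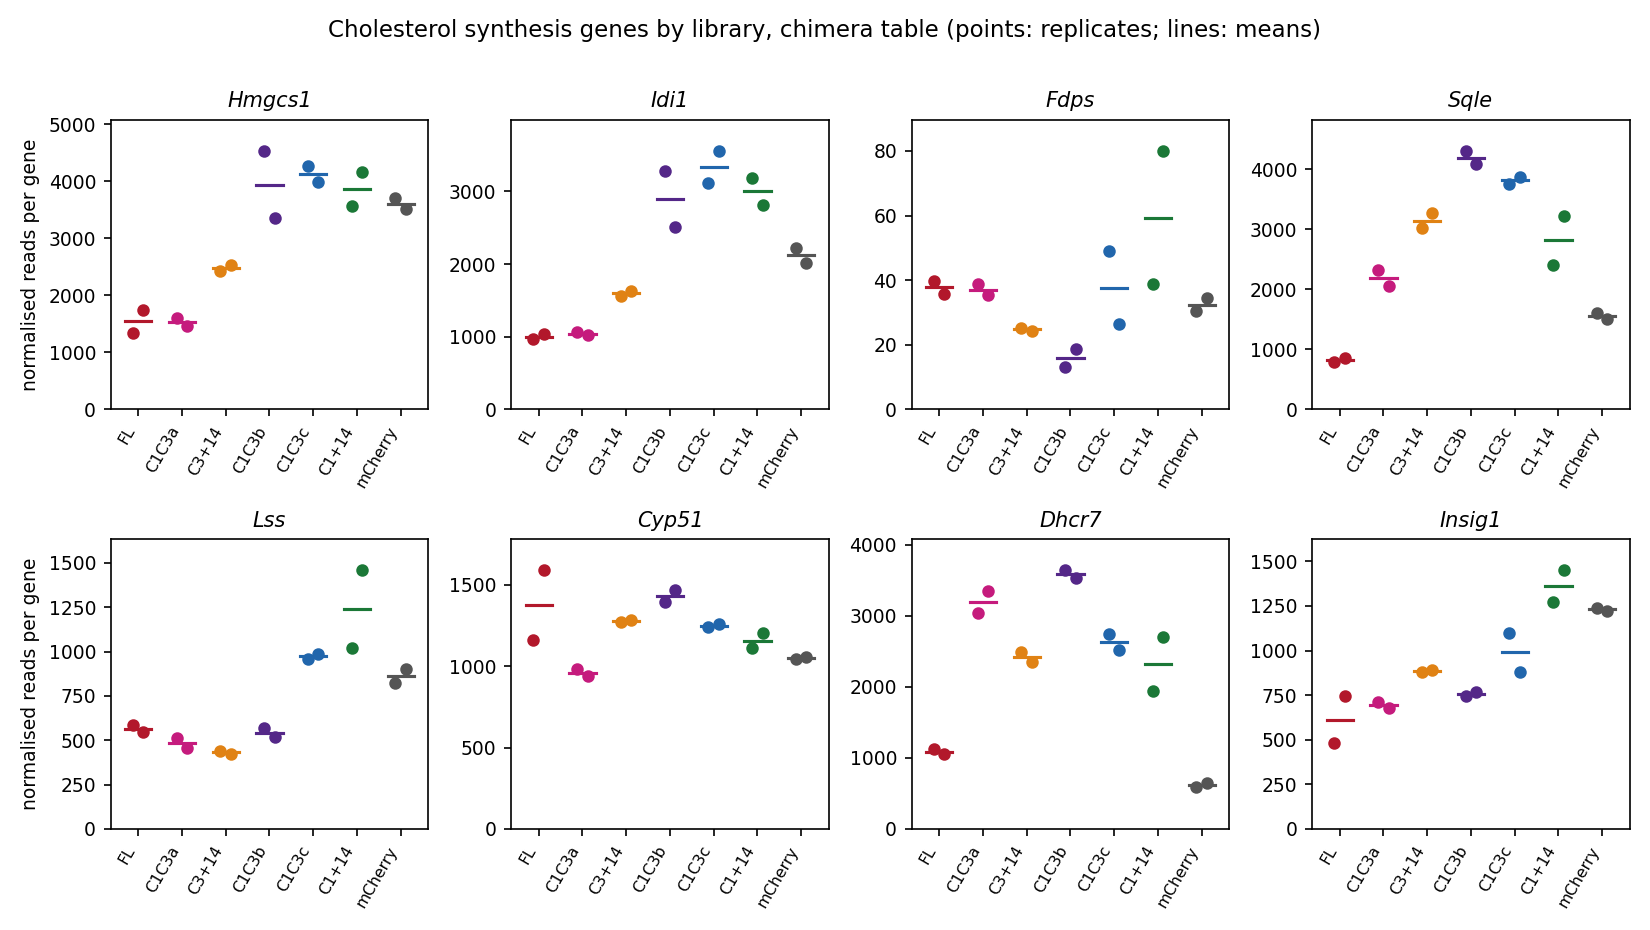
Normalised reads of the 8 genes (vertical axis, linear, from 0) in the 14 libraries of the chimera table, by construct; points are the replicates and lines the means. Dhcr7 is lowest in mCherry (596 and 643), Sqle is lowest in FL (782 and 858), and Hmgcs1 and Idi1 are lowest in FL and C1C3a.

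Hmgcs1 had 3705 and 3516 normalised reads in mCherry, 1338 and 1751 in FL, 1603 and 1464 in C1C3a, 2429 and 2530 in C3+14, 4536 and 3357 in C1C3b, 4263 and 3999 in C1C3c, and 3562 and 4169 in C1+14. FL and C1C3a overlapped each other and lay below all other groups, with C3+14 next. Hmgcs1 fell by 1.24 ± 0.16 on the log2 scale in FL (2.34-fold, adjusted p = 1.7e-05, limma) and by 1.24 in C1C3a. In C3+14 the value was -0.54 (adjusted p = 0.0086), and in C1C3b, C1C3c and C1+14 it was between 0.09 and 0.19.

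Idi1 had 2216 and 2018 normalised reads in mCherry, 974 and 1031 in FL, 1059 and 1019 in C1C3a, 1565 and 1629 in C3+14, 3283 and 2510 in C1C3b, 3112 and 3557 in C1C3c, and 3188 and 2808 in C1+14. FL, C1C3a and C3+14 lay below mCherry, and the other 3 constructs lay above it. Idi1 fell by 1.08 ± 0.14 in FL (2.11-fold, adjusted p = 1.8e-05, limma) and by 1.02 in C1C3a. The C1C3a call was lost without C1C3a replicate 2, where it was just short of the fold minimum, and without mCherry replicate 1 (-0.96). In C1C3b, C1C3c and C1+14 Idi1 was higher by 0.44, 0.65 and 0.50, each short of the fold minimum.

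Insig1 had 1238 and 1223 normalised reads in mCherry, 482 and 744 in FL, 713 and 680 in C1C3a, 878 and 892 in C3+14, 745 and 769 in C1C3b, 1100 and 879 in C1C3c, and 1270 and 1449 in C1+14. C1+14 lay above mCherry and the other 5 constructs lay below it. Insig1 fell by 1.04 ± 0.18 in FL (2.01-fold, adjusted p = 0.00025, limma). That call rests on FL replicate 1: without it the value was -0.73, and in DESeq2 it was just short of the fold minimum. In C1C3a and C1C3b Insig1 was lower by -0.82 and -0.70, short of the fold minimum.

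Lss had 821 and 904 normalised reads in mCherry, 585 and 548 in FL, 515 and 459 in C1C3a, 439 and 424 in C3+14, 567 and 516 in C1C3b, 961 and 989 in C1C3c, and 1023 and 1458 in C1+14. It lay below mCherry in 4 constructs and above it in C1C3c and C1+14. The largest difference, 1.998-fold lower in C3+14 (adjusted p = 0.00014, limma), stopped just short of the fold minimum and was called by edgeR (-1.06). Cyp51 lay between 937 and 1588 normalised reads in all 14 libraries, and its differences from mCherry were between -0.13 and 0.45. Fdps lay between 13 and 80 normalised reads, and its SE of 0.43 was the largest among the 8 genes.

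**Figure D2:**
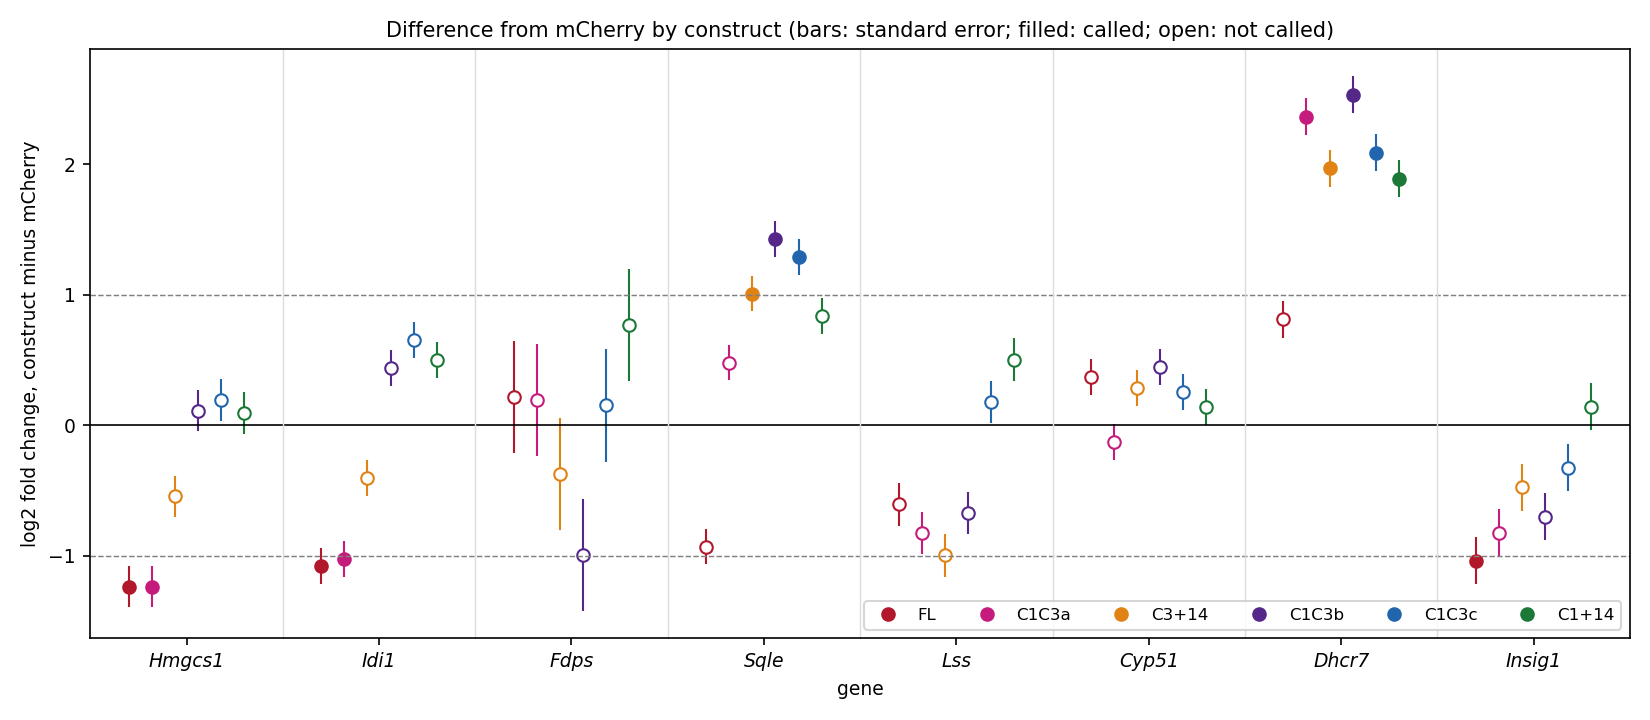
Log2 fold change from mCherry (vertical axis) for each gene and construct of the chimera table; bars are standard errors, filled points are called and dashed lines mark the fold minimum of 1. Dhcr7 is above 0 in all 6 constructs, from 0.81 in FL to 2.53 in C1C3b, while Hmgcs1 and Idi1 run from below -1 in FL and C1C3a to above 0 in C1C3b, C1C3c and C1+14.

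These counts are read beside the share of all genes called. In FL 3 of 8 members were called, all lower, while 44.2% of 21584 genes were called and 19.6% were called lower. The share called higher in FL was 24.5%. C3+14 had 2 of 8 called, both higher, beside 47.3% of all genes (29.6% higher, 17.7% lower). C1C3a had 1 of 8 called higher and 2 lower, beside 46.4% (27.4% higher, 19% lower). C1C3b had 2 of 8 called higher, beside 44.7% (27.6% higher, 17.1% lower). C1C3c had 2 of 8 called higher, beside 28.8% (18.3% higher, 10.5% lower). C1+14 had 1 of 8 called higher, beside 18.3% (12.4% higher, 5.95% lower). Relative to mCherry, the median of the 8 log2 differences was lowest for FL at -0.77, followed by C1C3a at -0.48 and C3+14 at -0.39. It was above 0 for C1C3c (0.22), C1C3b (0.28) and C1+14 (0.50). The median over all genes tested was between 0 and 0.23 in these 6 comparisons. The called rises of Dhcr7 in C3+14, C1C3a, C1C3b and C1C3c stood beside members below the mCherry level, in C1C3c only Insig1 (-0.32). In C1+14 all 8 members lay above 0, from 0.09 to 1.89, and the median over all genes tested was 0. The lowest of these, Hmgcs1, ran from -0.02 to 0.21 with 1 library left out.

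The 2 libraries of C1+14, in which summed 2-cell markers were 11 and 4.96 normalised reads, are of the same kind as FL and the C1C3 chimeras, so the next comparisons took C1+14 as the reference. Against C1+14, FL had 6 of 8 members called lower and none higher, while 39.9% of all genes were called, 21.5% higher and 18.4% lower. Sqle fell by 1.77 ± 0.14 on the log2 scale (3.43-fold, adjusted p = 2.4e-07, limma), Idi1 by 1.58 (2.99-fold), Hmgcs1 by 1.33, Insig1 by 1.18 (2.22-fold), Lss by 1.11 (2.19-fold) and Dhcr7 by 1.07 (2.13-fold). For each of these the libraries of FL and C1+14 did not overlap. The same was so for 34.7% of all genes tested with FL lower and 39.7% with FL higher. Cyp51 was 0.23 and Fdps -0.55, and their libraries overlapped. Without C1+14 replicate 2, Lss (-0.85) and Dhcr7 (-0.84) were not called, and without FL replicate 1, Insig1 (-0.87) was not called. The members' median was -1.14, against 0.06 over all genes tested.

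The chimeras were set against C1+14 in the same way. In C1C3a 3 of 8 were called, all lower (40.8% of all genes were called, 23.4% higher and 17.3% lower): Idi1 fell by 1.52 ± 0.14 (2.88-fold, adjusted p = 8.2e-07, limma), Hmgcs1 by 1.33 and Lss by 1.33. In C1C3b 2 of 8 were called, both lower (28.9% of all genes, 17.9% higher and 11% lower): Fdps fell by 1.76 ± 0.43 (adjusted p = 0.0048, limma) and Lss by 1.17. Both C1C3b calls were lost without C1+14 replicate 2, which left 0 of 8. In C1C3c 0 of 8 were called by limma, edgeR or DESeq2. Of all genes, 7.83% were called by limma, 5.37% higher and 2.46% lower. At an unadjusted p under 0.05 (limma) were 2 members and 6169 of 21584 genes. The largest differences in C1C3c were -0.62 in Fdps and -0.46 ± 0.18 in Insig1.

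Compared with FL, both C3+14 and C1C3a had Sqle and Dhcr7 higher. In C3+14 Sqle rose by 1.94 ± 0.14 (3.83-fold, adjusted p = 3.3e-07, limma) and Dhcr7 by 1.15 (2.23-fold), and these were the 2 of 8 members called (26.3% of all genes were called, 16.8% higher and 9.54% lower). In C1C3a Sqle rose by 1.41 (2.66-fold) and Dhcr7 by 1.55 ± 0.14 (2.94-fold, adjusted p = 1.0e-05, limma), again 2 of 8 (15.6% of all genes, 11% higher and 4.62% lower). Hmgcs1 and Idi1, by contrast, differed between C1C3a and FL by 0.00 ± 0.16 and 0.05 ± 0.14, and their libraries overlapped. FL and C3+14 are libraries of different kinds, and FL and C1C3a are of the same kind. Between C1C3a and C3+14, 0 of 8 members were called by limma, edgeR or DESeq2. Of all genes, 14.9% were called by limma, 7.52% higher and 7.38% lower. At an unadjusted p under 0.05 (limma) were 5 members and 7749 of 21584 genes. The largest difference among the members was -0.69 ± 0.16 in Hmgcs1.

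Between chimeras of the same library kind, C1C3b exceeded C1C3a in Idi1 by 1.47 ± 0.14 on the log2 scale (2.79-fold, adjusted p = 2.0e-06, limma) and in Hmgcs1 by 1.35 (2.57-fold), and both rose. Fdps was called lower by -1.18 ± 0.43 (adjusted p = 0.032, limma), a call that edgeR (-1.12) and DESeq2 (-1.22) did not make and that was lost without C1C3a replicate 1, C1C3a replicate 2 or C1C3b replicate 1. The 3 of 8 members called compare with 35.6% of all genes, 18.3% higher and 17.3% lower. Dhcr7 differed by 0.17 ± 0.14, and Insig1 by 0.12 ± 0.18. Between C1C3c and C1C3b, 0 of 8 members were called by limma or DESeq2 and 1 by edgeR. Of all genes, 11.2% were called by limma, 3.53% higher and 7.66% lower. At an unadjusted p under 0.05 (limma) were 3 members, Lss among them at 0.85 ± 0.16, and 7331 of 21584 genes.

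The deletion table sets FL beside constructs labelled as lacking C12345, 14 or both. Hmgcs1, Idi1, Fdps, Sqle, Lss and Insig1 were called higher than in FL in both constructs without C12345, Hmgcs1 was called in C12345delt14, and Cyp51 and Dhcr7 were called in none of the 3. Hmgcs1 had 1645 and 2190 normalised reads in FL, 3732 and 5384 in C12345delt14, 5475 and 4990 in deltC12345+14, and 5531 and 5606 in deltC12345delt14. Insig1 had 593 and 931 in FL, 1601 and 2609 in C12345delt14, 2851 and 2446 in deltC12345+14, and 2867 and 3279 in deltC12345delt14. For both genes FL lay below every other library. Both FL libraries lay below both deltC12345+14 libraries in 36.6% of all genes tested, and below both deltC12345delt14 libraries in 36.6%. For C12345delt14 the share was 25.7%.

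Sqle had 962 and 1074 normalised reads in FL, 1653 and 2636 in C12345delt14, 2840 and 2696 in deltC12345+14, and 2717 and 3029 in deltC12345delt14. Idi1 had 1198 and 1289 in FL, 2162 and 2897 in C12345delt14, 3018 and 3689 in deltC12345+14, and 3139 and 2724 in deltC12345delt14. Lss had 719 and 685 in FL, 1004 and 1285 in C12345delt14, 1686 and 1710 in deltC12345+14, and 1708 and 1838 in deltC12345delt14. FL was lowest in each of the 3, and C12345delt14 lay between FL and the other constructs in Sqle and Lss. Fdps was lowest in FL (49 and 45), and deltC12345+14 (99 and 116) and deltC12345delt14 (106 and 122) overlapped.

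**Figure D3:**
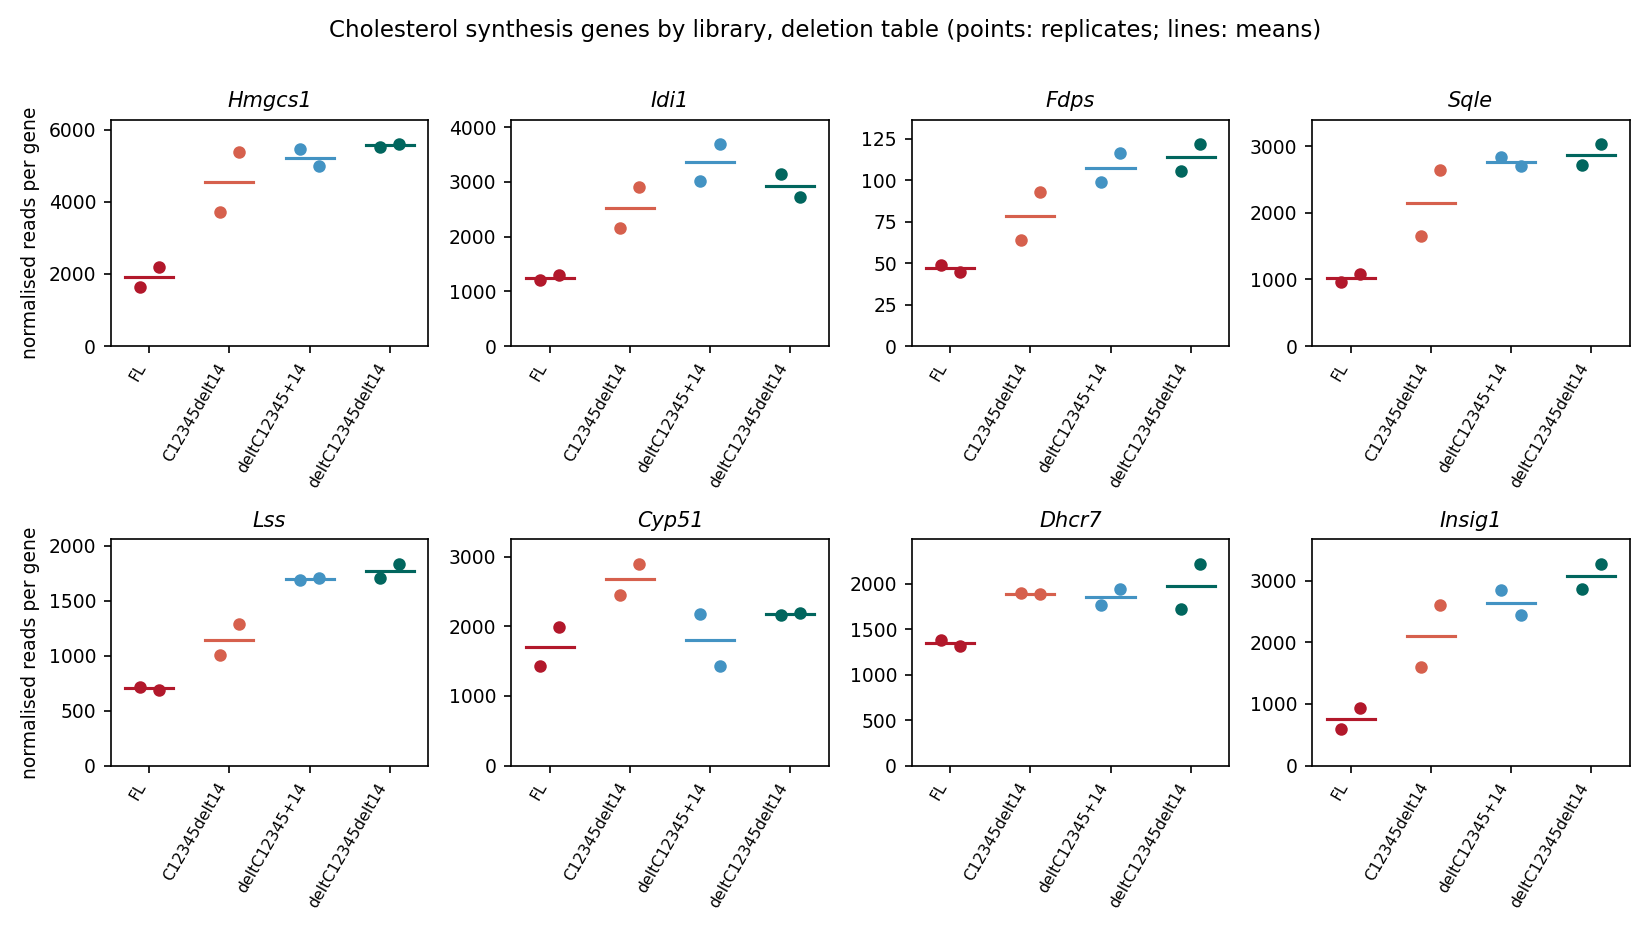
Normalised reads of the 8 genes (vertical axis, linear, from 0) in the 8 libraries of the deletion table, by construct; points are the replicates and lines the means. Both FL libraries lie below all others in every panel but Cyp51, where deltC12345+14 replicate 2 (1432) lies between the FL libraries (1426 and 1986). Of all genes tested, both FL libraries lay below both libraries of deltC12345+14 in 36.6%, of deltC12345delt14 in 36.6% and of C12345delt14 in 25.7%.

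Against FL, deltC12345+14 had 6 of 8 members called higher, while 38.4% of 19833 genes were called, 18.4% higher and 20% lower. Insig1 rose by 1.83 ± 0.28 on the log2 scale (3.48-fold, adjusted p = 0.0014, limma), Hmgcs1 by 1.46, Sqle by 1.44, Idi1 by 1.42, Lss by 1.27 and Fdps by 1.18. In deltC12345delt14 the same 6 were called higher (39.1% of all genes were called, 18.8% higher and 20.3% lower): Insig1 rose by 2.04 ± 0.28 (4.04-fold, adjusted p = 0.00084, limma), Sqle by 1.496, Hmgcs1 by 1.55, Lss by 1.33, Fdps by 1.26 and Idi1 by 1.23. The Fdps calls were lost without replicate 2 of deltC12345+14 (1.06) or of deltC12345delt14 (1.16). Dhcr7 was 0.46 and 0.54 and Cyp51 0.07 and 0.37 in these comparisons, and neither was called. The members' medians were 1.35 and 1.30, against -0.08 and -0.11 over all genes tested. These 2 comparisons and the comparison with C12345delt14 share the FL libraries.

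In C12345delt14, which keeps C12345, Hmgcs1 rose by 1.24 ± 0.20 over FL (2.38-fold, adjusted p = 0.046, limma) and was the 1 of 8 members called, where 0.958% of all genes were called, 0.338% higher and 0.62% lower. Insig1 (1.46, adjusted p = 0.057), Sqle (1.04, adjusted p = 0.063) and Idi1 (1.01, adjusted p = 0.052) reached the fold minimum but not the adjusted p in limma. For all 8 members both C12345delt14 libraries lay above both FL libraries, as they did for 25.7% of all genes tested. The call depended on the setting: 4 members were called by edgeR and by DESeq2, and 0 after leaving out FL replicate 1, C12345delt14 replicate 1 or C12345delt14 replicate 2. The replicate block left 0 members called (Hmgcs1, adjusted p = 0.065, limma).

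Between deltC12345+14 and deltC12345delt14, 0 of 8 members and 0 of 19833 genes were called by limma (0% called). At an unadjusted p under 0.05 were 0 members and 543 genes, and edgeR and DESeq2 called 0 members. Differences were between -0.30 and 0.19, with SEs from 0.15 to 0.33. Whether taking away 14 changed the members more when C12345 was present was tested as a difference of the 2 effects. Its values were 1.24 ± 0.39 for Insig1, 1.20 ± 0.26 for Idi1 and 1.15 ± 0.29 for Hmgcs1, and limma and edgeR called 0 of 8 members (adjusted p = 0.31 for Hmgcs1) and 0% of all genes, with 2748 genes at an unadjusted p under 0.05. Of the members, 5 were at an unadjusted p under 0.05 (limma). DESeq2 called 2, and its count over all genes is not given here. Those 2 are therefore not set against the 0% of limma and edgeR.

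The other enzymes of the mevalonate and sterol pathway are read against the same shares of all genes. Of 13 reported here, all tested, FL against mCherry had 2 called lower (Sc5d and Ggps1) and 0 higher, beside 19.6% of all genes called lower and 24.5% higher. Sc5d, a sterol desaturase that acts just before Dhcr7, had 150 and 214 normalised reads in FL against 438 and 448 in mCherry, and fell by 1.30 ± 0.20 on the log2 scale (adjusted p = 8.0e-05, limma). The groups did not overlap, as for 37.8% of all genes tested with FL lower. Of the same 13, 3 were called higher in C1+14 and 0 lower, C1C3c had 3 higher and 1 lower, and C1C3b had 3 in each direction. C3+14 had 2 in each direction and C1C3a had 1. Msmo1, which demethylates sterols after Cyp51, had 1518 and 1467 normalised reads in mCherry, 1441 and 1506 in FL, and between 2548 and 4155 in C3+14, C1C3b, C1C3c and C1+14. It rose in C1C3b (1.40 ± 0.19), C3+14 (1.29), C1C3c (1.25) and C1+14 (1.04), and in FL its libraries overlapped those of mCherry. The Msmo1 call was lost in C3+14 with total-read scaling (0.50) and in C1+14 without its replicate 2 (0.77). Mvk, which phosphorylates mevalonate, had 444 and 386 normalised reads in mCherry and between 530 and 1628 in the constructs. It was called higher in 5 of 6 constructs, by 1.84 ± 0.19 in C1C3b, and was 0.60 in FL. With total-read scaling the Mvk values in C3+14 and C1C3a were 0.32 and 0.23 and were not called. Pmvk, the next kinase, fell in C3+14 (-1.84), C1C3b (-1.67), C1C3a (-1.38) and C1C3c (-1.09). With 1 library left out, Pmvk in C1C3c ran from -1.28 to -0.91 and Mvk in C3+14 from 0.95 to 1.26. Both ranges cross the fold minimum.

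Against C1+14, FL had 2 of the 13 other enzymes called lower (Sc5d by -1.79 and Msmo1 by -1.06) and 0 higher, beside 18.4% of all genes called lower. Without C1+14 replicate 2 the Msmo1 value was -0.79 and was not called. In the deletion table the same 2 were called higher in deltC12345+14 and in deltC12345delt14 than in FL, with Msmo1 at 1.04 ± 0.14 and 1.11 ± 0.14. The first of these Msmo1 calls was lost without FL replicate 1 or deltC12345+14 replicate 1. Of 20 enzyme genes in pathway order, members included, FL was below C1+14 in 18, below deltC12345+14 in 17 and below deltC12345delt14 in 18, and 7 were called lower in each. Of all genes tested, 47.8%, 47.5% and 47.1% were below 0 in these comparisons, shares that move with the scaling, and 18.4%, 18.4% and 18.8% were called lower in FL. Against mCherry FL was below in 12 of 20, with 4 called lower, beside 46.8% of all genes below 0 and 19.6% called lower. Mvd, which makes isopentenyl diphosphate, was 0.69 ± 0.21 in FL against C1+14 and was not called, beside -1.58 for Idi1, the next gene in the pathway.

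**Figure D4:**
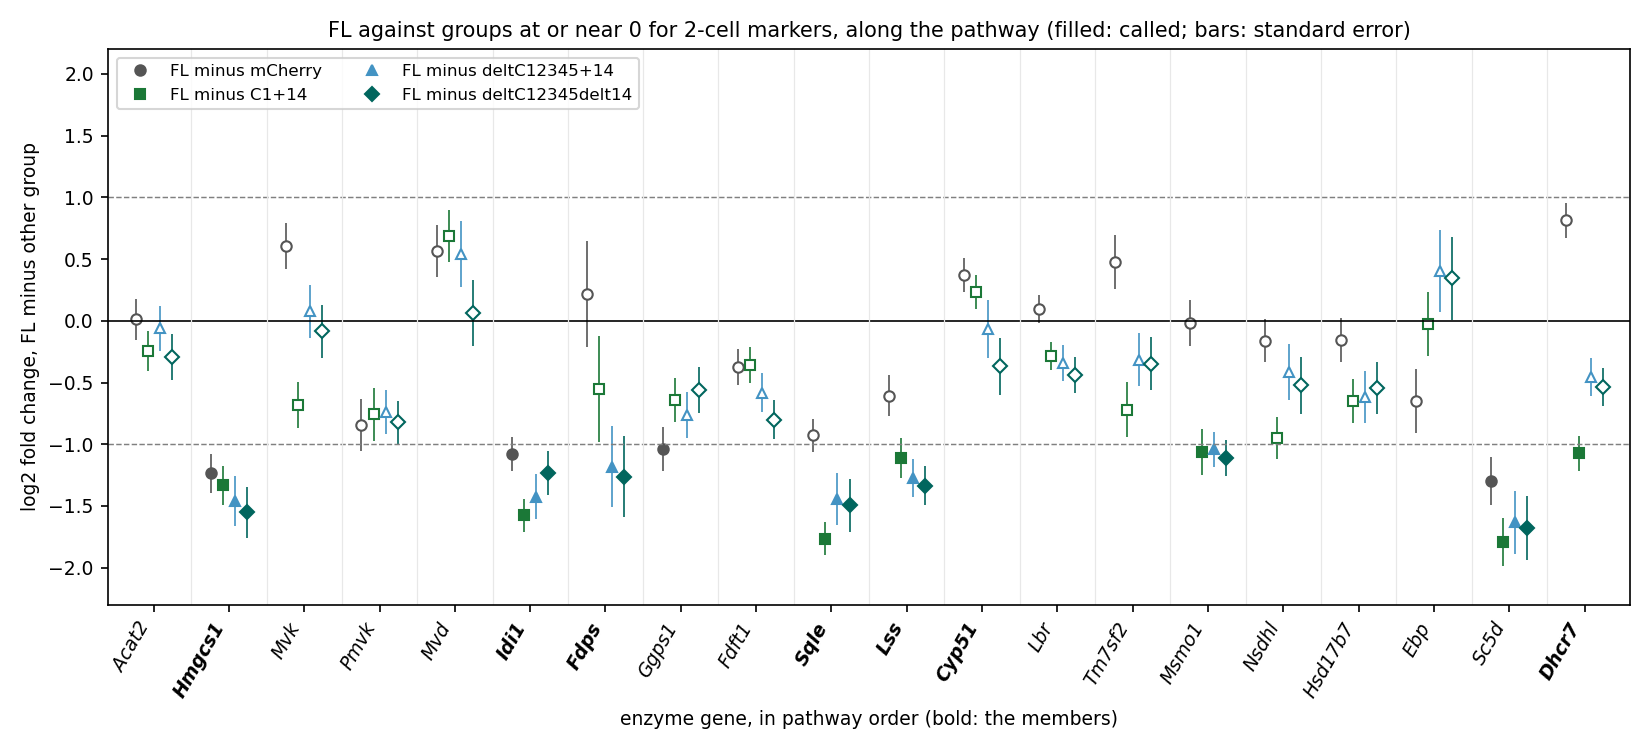
Log2 fold change of FL minus mCherry, C1+14, deltC12345+14 or deltC12345delt14 (vertical axis) for 20 enzyme genes in pathway order; bars are standard errors, filled points are called and dashed lines mark the fold minimum of 1. Hmgcs1, Idi1 and Sc5d are called lower in FL in all 4 comparisons, and Dhcr7 lies above 0 against mCherry (0.81) and below 0 against the others.

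Among 6 regulators of SREBP, FL, C3+14 and C1C3a each had 2 called lower than in mCherry and 0 higher, beside 19.6%, 17.7% and 19% of all genes called lower: Mbtps2, the protease that frees SREBP from the membrane, and Srebf1, which encodes SREBP1. Mbtps2 had 211 and 202 normalised reads in FL against 610 and 649 in mCherry (-1.60 ± 0.20, adjusted p = 1.4e-05, limma), and Srebf1 had 581 and 406 against 1044 and 1129 (-1.16 ± 0.20). The Srebf1 call in FL was lost without FL replicate 2 (-0.90). Mbtps2 was also called lower in C1C3b (-1.27 ± 0.20, adjusted p = 0.00011, limma), beside 17.1% of all genes called lower. Srebf1 was -0.73 there and was not called. Srebf2, which encodes SREBP2, was not called in any construct against mCherry, with values from -0.40 in C3+14 to 0.64 in C1+14. In deltC12345+14 and deltC12345delt14, Mbtps2 (1.68 and 1.68) and Srebf1 (1.58 and 1.96) were the 2 of 6 called higher than in FL, beside 18.4% and 18.8% of all genes.

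Of 7 genes of sterol uptake and transport reported here, 2 were called lower in FL than in mCherry and 0 higher (19.6% and 24.5% of all genes). Lpin1, an SREBP-responsive lipid phosphatase, had 19 and 95 normalised reads in FL against 1200 and 1279 in mCherry (-4.82 ± 0.57, adjusted p = 9.8e-06, limma). The FL libraries differed from each other but did not overlap mCherry, as for 37.8% of all genes tested with FL lower. Stard4, a sterol transfer protein, was called lower in FL (-1.003 ± 0.19) and higher in C1C3b (1.95), C1C3c (1.95) and C1+14 (1.39). The FL value was -0.66 without FL replicate 1 and was not called. Lpin1 also fell in C1C3a (-2.80), C3+14 (-2.00) and C1C3c (-1.51, adjusted p = 0.047). Tmem97, a membrane protein of sterol handling, had 390 and 425 normalised reads in C1C3b against 1392 and 1353 in mCherry (-1.75 ± 0.16, adjusted p = 1.0e-06, limma), and was -0.80 in FL. In C12345delt14, Stard4 (1.35 ± 0.23, adjusted p = 0.049, limma) was the 1 of 7 called higher than in FL, beside 0.338% of all genes. That call was lost without FL replicate 1, C12345delt14 replicate 1 or C12345delt14 replicate 2, where calls of other genes were lost too.

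Of 6 genes of sterol efflux and storage, Abca1, the cholesterol exporter, had 143 and 190 normalised reads in FL against 1122 and 1147 in mCherry (-2.77 ± 0.23, adjusted p = 3.6e-07, limma) and was the 1 of 6 called in FL, beside 44.2% of all genes called in either direction. It also fell in C1C3a (-2.69) and C3+14 (-1.25). Mylip, a sterol-induced ubiquitin ligase, rose in C1C3b (2.96), C3+14 (2.01), C1C3c (1.51) and C1+14 (1.47). Soat1, which esterifies cholesterol, rose in C1+14 (1.51) and C1C3c (1.20) and fell in C1C3a (-1.41). With 1 library left out, the C1C3c value of Soat1 ran from 0.86 to 1.53, at its lowest short of the fold minimum. Of 10 fatty acid synthesis genes, Elovl6 (-1.98), Scd1 (-1.24) and Scd2 were called lower in FL and Acss2 higher, beside 19.6% and 24.5% of all genes. The Scd1 call was lost without FL replicate 1 (-0.88). Elovl6, a fatty acid elongase, fell furthest in C1C3b, to 379 and 242 normalised reads against 3757 and 3813 in mCherry (-3.64 ± 0.33). Fads2, a fatty acid desaturase, fell in C3+14, C1C3a, C1C3b and C1C3c by 1.25 to 1.53 and was -0.04 in FL. Its C1C3c value ran from -1.81 to -0.68 with 1 library left out, so it did not always reach the fold minimum.

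How libraries were scaled moved these values. Scaled to total reads in place of the deposited size factors, the median of all genes in FL minus mCherry moved from 0.09 to -0.86, and in FL minus C1+14 from 0.06 to -1.11. The split of calls in FL against mCherry was 5290 higher and 4241 lower with the deposited factors, 3917 and 5589 after quantile normalization and 3585 and 9238 with total reads. Against C1+14 it was 4637 and 3981, 3307 and 5084, and 2156 and 10459. For deltC12345+14 against FL it was 3650 and 3966, 4863 and 2788, and 9712 and 1960. Relative to the median of all genes, the members' median in FL minus mCherry was -0.86 with the deposited factors, -0.92 in edgeR, -0.94 with total reads and -0.48 after quantile normalization. In FL minus C1+14 it was -1.20, -1.23, -1.28 and -1.10 in the same order. Dhcr7 stayed above 0 against mCherry in C3+14, C1C3a, C1C3b, C1C3c and C1+14 under every scaling tried, at 1.18 at the least.

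**Figure D5:**
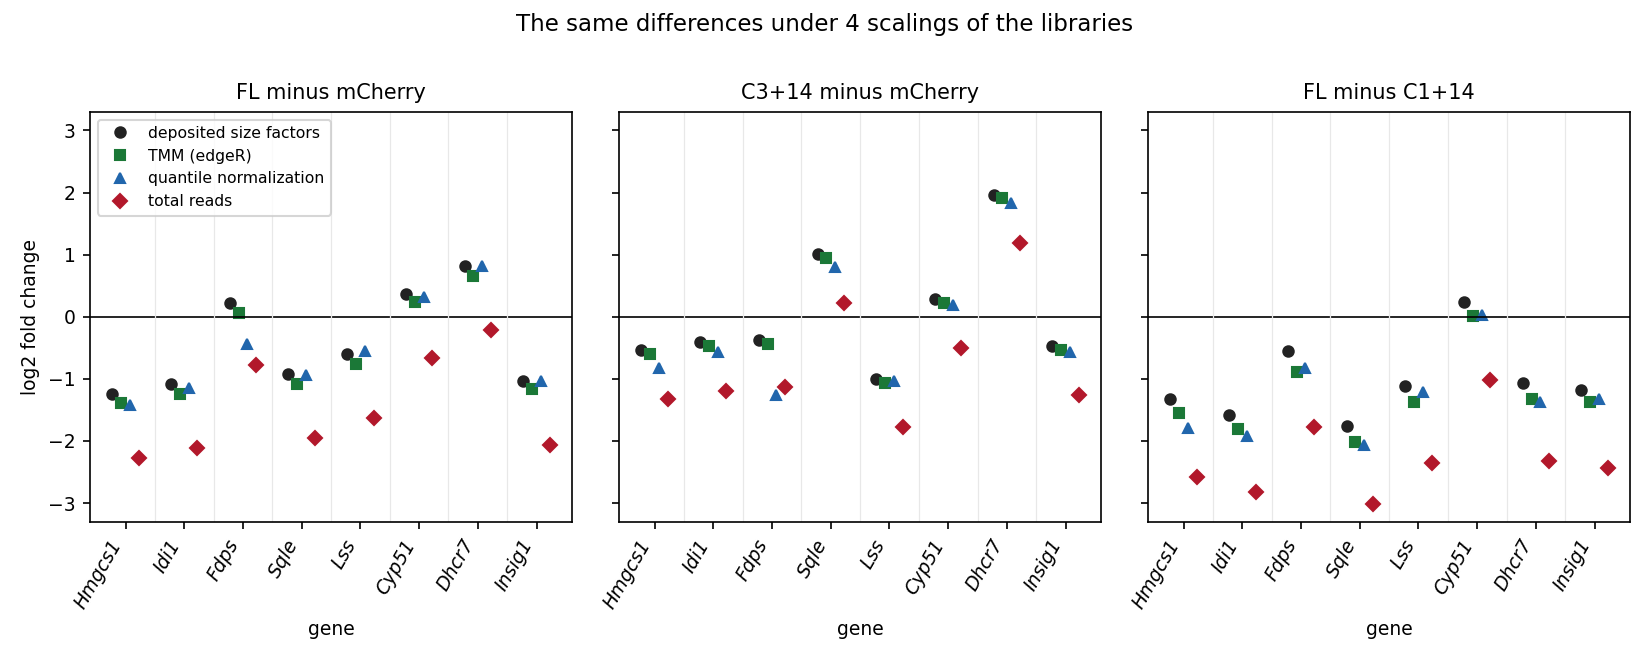
Log2 fold changes of the 8 genes (vertical axis) in FL minus mCherry, C3+14 minus mCherry and FL minus C1+14 under 4 scalings of the libraries; each symbol is a scaling. With total reads all points move down, so that Dhcr7 in FL minus mCherry goes from 0.81 to -0.22, while Dhcr7 in C3+14 minus mCherry stays above 0 (1.18).

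The genes whose pattern over the 14 chimera libraries was most like the members' mean standardised level, of 13514 ranked, were Fam20b (Pearson's r = 0.959), B3galnt1 (0.953), Cmtm6 (0.949), Zscan2 (0.945) and Accs (0.945). The libraries share constructs and kinds, so these correlations are descriptions. Fam20b had a mean of 471 normalised reads in FL, 623 in mCherry and 1030 in C1+14, and Cmtm6 had 841, 1503 and 2564. The mean was lowest in FL for 4 of the 5, and for Accs it was 85.3 in C1C3a and 96.0 in FL.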

How the data were processed

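Poly(A) RNA of 20 libraries (10 groups of 2) was analysed. C3delt14 was not analysed here. The deposited values are a signal, per gene, named normalised counts by the authors' table names. Each value is a whole number of reads (100% within 0.01 read) over a size factor of its library. Trim Galore 0.5.0, FastQC, DESeq2 and mm10 are named, with no role given, per the submitters' processing notes. Aligner, counting program and annotation are not given in the sources used here. Symbols and coordinates are from GENCODE M21 (GRCm38), which named 99.4% of identifiers.

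The test was limma 3.58.1 (R 4.3.3; lmFit, eBayes with a trend) on log2(value + 1), so fold changes of low genes are understated. A gene entered the test when 2 or more libraries reached 10, and the spread was estimated over the whole table. P-values were adjusted over all genes tested. An exact permutation test of 2 against 2 libraries cannot go below p = 0.333. Alternatives were pseudocounts of 0.1 and 8, other filters, quantile normalization, edgeR 4.0.16 and DESeq2 1.42.0 on the recovered reads, a fit of only the compared groups, a replicate block, no minimum fold and leaving out each library. Total-read scaling, FL against C1+14, the difference of the 2 effects and a crossed block were added after seeing the data. The 2 kinds of library were told apart after seeing the data. The script was tested on simulated data. Replicates differed by 3.55 to 89.1 in chi-square per gene, so none was a duplicate.

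The members and lists were chosen with earlier results of these data known. Named list genes are up to 3 per list with the largest called difference from mCherry, plus Srebf1 and Srebf2. Some listed genes are not reported here and were left out of the lists and counts. Sc5d, Ggps1, Mvd, Scd2 and Acss2 were named after their values were seen. A count of 0 reads allows up to 3 reads. Such limits cover counting error only, because reads carry no molecular identifiers.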

Additional observations from a re-analysis of the deposited data

How the results depend on the processing

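Over the other settings, 1851 log2 fold changes of the members and the named list genes were recomputed. Of these, 1757 kept their direction and call, 35 lost the call, 47 gained it and 12 changed sign. Counts of called members are not among them. Of 744 values with 1 library left out, 7 changed sign, and many more lost a call than gained one. No value that was called changed sign under any of these settings. With total-read scaling, FL Fdps (-0.78), Cyp51 (-0.66), Dhcr7 (-0.22) and Srebf2 (-0.65), C3+14 Cyp51 (-0.50), and C1C3a Fdps (-0.70) and Sqle (-0.44) were below 0 against mCherry, as did Cyp51 (-1.02) in FL against C1+14. After quantile normalization, Fdps in FL (-0.43), C1C3a (-0.65) and C1C3c (-0.24) and Srebf2 in FL (-0.04) did. With 1 library left out, Hmgcs1 ran from -0.10 to 0.33 for C1C3b, and for C1+14 from -0.02 to 0.21, Fdps from -0.28 to 0.59 and Srebf2 from -0.06 to 0.12 in C1C3c, all against mCherry, and Cyp51 from -0.23 to 0.37 in deltC12345+14 against FL. The cause was not tested.

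With no minimum fold the members called against mCherry were 7 for FL, 6 each for C3+14, C1C3a and C1C3b, and 4 for C1+14. Against C1+14 they were 6 in C1C3a, 5 in C1C3b and 1 in C1C3c. They were 5 in C3+14 against FL, 4 in C1C3a against C3+14, 5 in C1C3b against C1C3a and 2 in C1C3c against C1C3b. The share of all genes called with no minimum fold is not given here, so these counts are not read as a result about the members. For scale, 13909 of 21584 genes were at an unadjusted p under 0.05 in FL against mCherry (limma). With total-read scaling the members called were 5 for FL, 6 each for C3+14 and C1C3a and 2 for C1+14 against mCherry. They were 7 in C1C3a against C1+14, 2 in C1C3c against C1C3b and 0 in C12345delt14 against FL. Of all 21584 genes, this scaling called 12823 for FL, 11797 for C3+14, 12744 for C1C3a and 4112 for C1+14 against mCherry. It called 12168 genes in C1C3a against C1+14 (2590 higher and 9578 lower) and 2792 in C1C3c against C1C3b. In C12345delt14 against FL it called 0 of 19833 genes. After quantile normalization the members called were 2 in C1+14 against mCherry, 1 in C1C3c against C1C3b and 4 in C12345delt14 against FL. Of all genes, 3299, 2575 and 434 were called, in the same order. A minimum of 50 normalised reads, which leaves out Fdps, gave 1 in C1C3b against C1+14 and 3 in C12345delt14 against FL. Fitting only the compared groups gave 1 and 4 there. EdgeR called 1 member in C1C3c against C1C3b, beside 2531 of 21584 genes. In C12345delt14 against FL, edgeR, DESeq2 and a pseudocount of 8 gave 4 members, and a pseudocount of 0.1 and no filter gave 0. EdgeR called 467 of 19833 genes there. DESeq2 called 2 for the difference of the 2 effects. For the minimum of 50, the fit of only the compared groups, DESeq2, the pseudocounts and no filter, the share of all genes called is not given here. Those counts are therefore not read as a result about the members. With 1 library left out, the count of called members moved in C3+14 and C1+14 against mCherry and in C1C3b against C1+14. It also moved in C1C3c against C1C3b and in C12345delt14 against FL.

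Libraries with the same replicate number did not deviate together (r between -0.10 and 0.05 over pairs of chimera groups, and between -0.57 and 0.14 over pairs of deletion groups), so the numbers do not pair them. With a replicate block 0 members were called in C12345delt14 against FL, and no other count of called members changed. Crossing the numbers between deltC12345+14 and deltC12345delt14 gave 0 called members. Depth limits Fdps most, with 13 to 80 normalised reads in the chimera table. For the other members, differences of under 2-fold passed the adjusted p in several comparisons and were kept from a call by the fold minimum.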
